A study of Mus musculus with 12 samples.

Results

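Gpr83, 1 of 16426 genes named by the array table and 1 of 8918 bright enough to be tested, was followed across all 12 arrays of a study of mouse Foxp3 alleles. The gene was chosen by its measured values in these 12 arrays, so its own levels and differences are given as a description, with no test. Its single probe set (Entrez symbol Gpr83, chromosome 9) was the only one of the table that named it.

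The arrays, Affymetrix Mouse Gene ST 1.0 chips, measured RNA from CD4+ T cells of male C57Bl/6 mice aged 6 weeks, in 6 groups of 2 arrays. Regulatory T cells (Tregs) came from spleens of mice labelled Foxp3(WT/WT), Foxp3(M176/M176) or Foxp3(M354/M354) and were double-sorted as CD4+ CD25-high cells. The other 3 groups were conventional CD4+ T cells of WT mice, transduced in vitro with a retrovirus encoding WT, M176 or M354 Foxp3 and double-sorted as Thy1.1-high cells. The amino acid changes behind M176 and M354 are not stated in the labels. No group of cells with an empty retrovirus was among the samples, so the transduced groups are compared with each other and with Tregs only. The mice are described as treated before the sort, with no agent named. CD25 marks activated conventional T cells as well as Tregs, and the transgene is carried by the retrovirus, apart from the Foxp3 locus. Whether replicate arrays stem from different animals or cultures is not labelled, so the p-values reflect only how these arrays scatter, and that scatter may be technical.

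Gpr83 encodes a G protein-coupled receptor of the rhodopsin-like class, known also as a glucocorticoid-induced receptor and for long an orphan. PEN, a peptide cut from the precursor proSAAS (gene Pcsk1n), has been reported as its ligand, with signalling through Gq proteins to phospholipase C. In T cells Gpr83 is known as a transcript of Tregs that Foxp3, the forkhead transcription factor of that lineage, raises when it is introduced into conventional CD4+ T cells.

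The promoter window of Gpr83 is shown because every group of the study differs in the form or the source of a DNA-binding protein. RefSeq places it, on build GRCm38.p6, at chr9:14859960-14860259 on the plus strand, 250 bases before the annotated start and 50 after it. The capitals mark the only TATAAA in either direction.

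Gpr83 promoter: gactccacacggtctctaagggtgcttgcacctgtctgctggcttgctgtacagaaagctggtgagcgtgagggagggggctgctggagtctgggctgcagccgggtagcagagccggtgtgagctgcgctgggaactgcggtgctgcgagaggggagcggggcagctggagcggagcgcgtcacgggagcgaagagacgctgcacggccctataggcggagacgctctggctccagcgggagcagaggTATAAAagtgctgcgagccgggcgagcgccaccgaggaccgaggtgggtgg

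The window was 67% G or C, against a median of 52.7% over 32851 windows of the same length, and held 24 CG dinucleotides against a median of 7. TATAAA, the TATA box letters, began at base -1, the last base before the annotated start, and 13.6% of windows hold it on at least 1 strand. The forkhead letters TGTTTNC were not in the window on either strand, and 20.5% of windows hold them. Their shorter core TGTTT, found in 50.5% of windows, was not there either. The glucocorticoid receptor motif TGTTCT, in 19% of windows, and the GC box GGGCGG, in 35.7%, were not in the window. The cyclic AMP response motif TGACG, in 20.8% of windows, was there once, on the minus strand at base -71. These matches describe letters in this window, and no binding was measured on these arrays.

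In Tregs, Gpr83 was measured at 2588 and 2224 on the arrays of WT mice, as intensities after RMA (a background correction, alignment of arrays and summary of probes) on a linear scale. The arrays of M176 Tregs read 1567 and 1532. The arrays of M354 Tregs read 1042 and 1097. The 3 Treg groups did not overlap, with WT highest, M176 in the middle and M354 lowest, and the arrays of a group lay closer to each other than to any array of another group.

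In transduced cells the arrays with WT Foxp3 read 517.4 and 510.1. Those with M176 Foxp3 read 399.3 and 390.5. Those with M354 Foxp3 read 184.2 and 263.1. The order of the alleles was that of the Tregs, again with no overlap, and all 6 transduced arrays lay below all 6 Treg arrays. The arrays with M354 stood apart from each other by a factor of 1.43. All 12 readings were above the median probe set of their array, which ranged from 101.5 to 117.4, and far above the 5th percentile, 15.7 to 18.2.

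**Figure D1:**
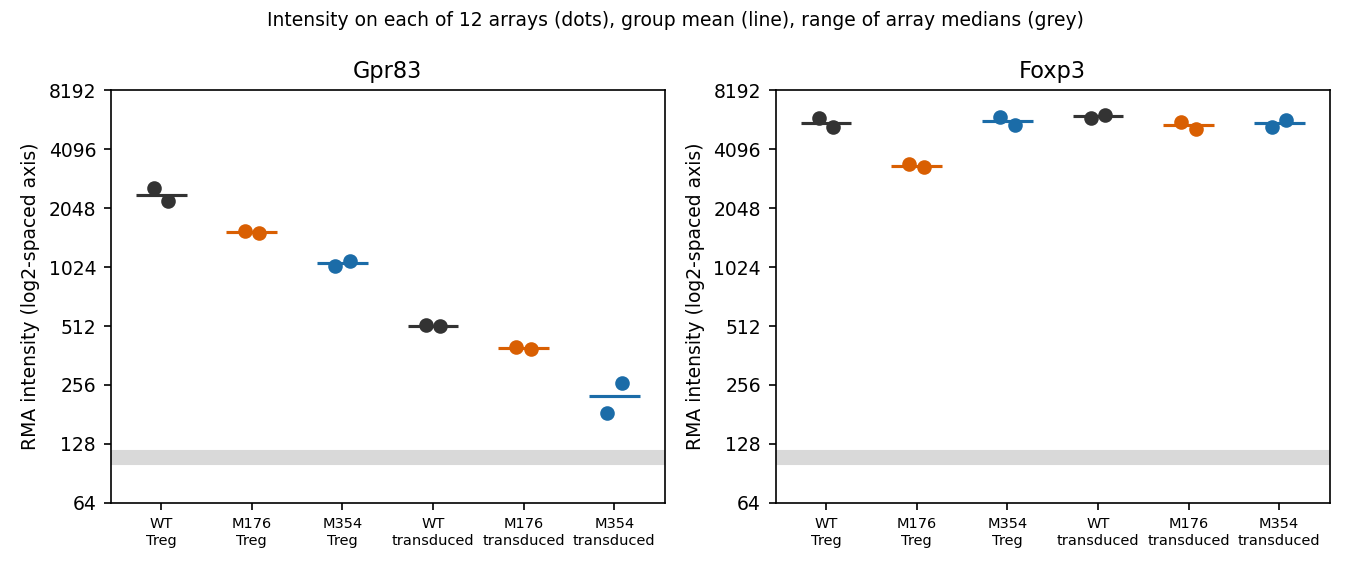
Intensity of Gpr83 (left) and Foxp3 (right) on each of the 12 arrays, on a log2-spaced axis, as dots with the group mean as a line; the grey band is the range of the array medians. Gpr83 lies at 6 separate levels, from 2588 in a WT Treg array to 184.2 in an M354-transduced array, while Foxp3 stands apart in M176 Tregs, with a mean of 3381.

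As group means, Gpr83 lay at 2406 ± 258 (SD, n = 2) in WT Tregs, 1549 ± 24.5 in M176 Tregs and 1069 ± 38.7 in M354 Tregs. The transduced means were 513.7 ± 5.11 with WT, 394.9 ± 6.24 with M176 and 223.7 ± 55.8 with M354. On the log2 scale the steps between neighbours in this order were 0.63, 0.53, 1.06, 0.38 and 0.84, each with a standard error (SE) of 0.15 from limma, a linear model fitted to all genes. This SE pools the spread of all 6 groups. The log2 SD of Gpr83 was 0.36 with M354 and 0.014 with WT in transduced cells. The SE is thus too narrow for steps to M354-transduced cells. The smallest step was that from WT to M176 in transduced cells.

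The M354 allele went with the lower Gpr83 in both systems. In Tregs the log2 difference of M354 from WT was -1.17 ± 0.15 (SE), which left 44.6% of the WT level, and 6 of the 8918 tested genes had a lower difference. In transduced cells it was -1.22 ± 0.15, or 42.9% of WT, with 12 genes lower. Over all tested genes the median of these differences was -0.04 in Tregs and 0.01 in transduced cells. Without replicate 1 of the M354-transduced cells, the dimmer one, the second difference was -0.97, and without replicate 2 it was -1.48.

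The M176 allele gave smaller Gpr83 differences. M176 Tregs held 64.6% of the WT level, a log2 difference of -0.63 ± 0.15 that 330 genes went below. M176-transduced cells held 76.9%, a difference of -0.38 ± 0.15 with 203 genes below it. The medians over all tested genes were -0.04 and -0.01. Both M176 differences share the WT arrays with the M354 differences.

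Set directly against each other, M354 lay below M176 by a log2 difference of -0.53 ± 0.15 in Tregs (69.0%) and -0.84 ± 0.15 in transduced cells (55.8%). Only 1 of the 8918 genes had a lower M354 against M176 difference in transduced cells than Gpr83, whereas 1068 did in Tregs. Leaving out replicate 1 of the M354-transduced cells moved the difference in transduced cells to -0.59, and leaving out replicate 2 moved it to -1.10.

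The effect of M354 on Gpr83 in Tregs minus that in transduced cells was 0.06 ± 0.21 on the log2 scale. It was -0.20 without replicate 1 of the M354-transduced cells, 0.31 without replicate 2 and -0.05 without replicate 2 of the WT Tregs, so its sign rested on which arrays were kept. For M176 the same difference between systems was -0.25 ± 0.21.

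**Figure D2:**
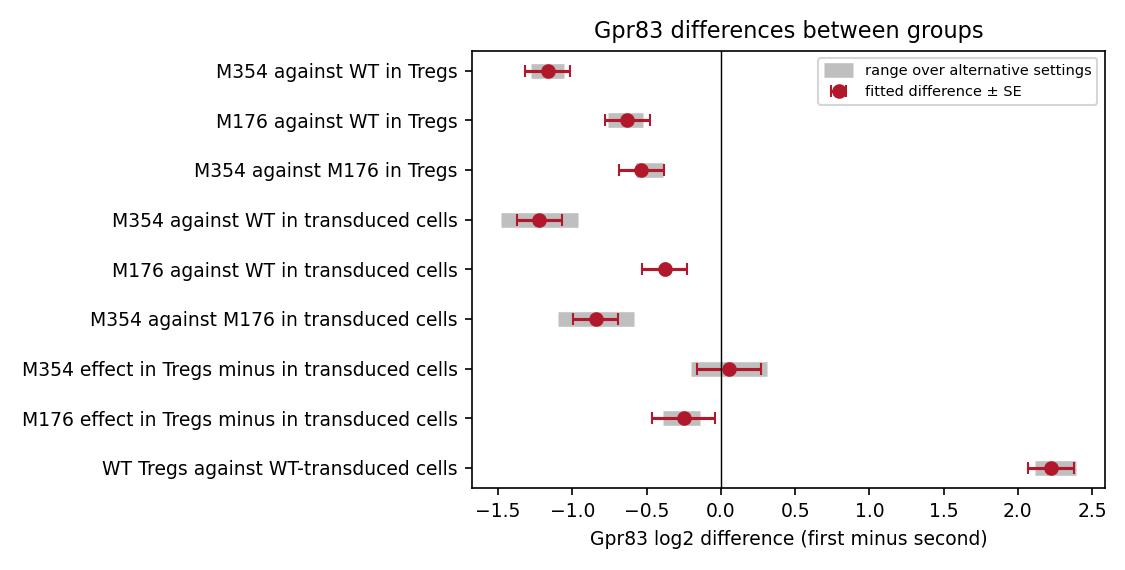
Log2 difference of Gpr83 for each comparison (red dot, first minus second, with 1 SE from limma) and the range over the alternative settings (grey). All 6 allele comparisons lie below 0, from -1.22 to -0.38, and the WT Treg against WT-transduced difference lies at 2.22; the M354 difference between systems spans 0.

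Between WT Tregs and WT-transduced cells the log2 difference was 2.22 ± 0.15, a 4.67-fold higher level in Tregs, and 15 of the 8918 genes had a larger one. M354 Tregs, the lowest of the Treg groups, still lay above the WT-transduced cells by 1.06. In bulk samples such as these, fewer cells carrying a transcript and less transcript per cell cannot be told apart.

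Foxp3 itself was measured at 5620 ± 414 in WT Tregs, 3381 ± 85.5 in M176 Tregs and 5738 ± 358 in M354 Tregs. It fell in M176 Tregs, by a log2 difference of -0.73 ± 0.13 (adjusted p = 0.000552). The transduced groups held 6054 ± 154 with WT, 5448 ± 304 with M176 and 5580 ± 340 with M354. The M354 groups, lowest for Gpr83 in each system, differed from WT for Foxp3 by log2 0.03 in Tregs (adjusted p = 0.972) and -0.12 in transduced cells (0.838). WT Tregs differed from WT-transduced cells by -0.11 (adjusted p = 0.545). The order of Foxp3 over the groups was thus not that of Gpr83. The array cannot say whether the probe set reads the endogenous transcript, the transgene or both.

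The cells' identity and purity bear on these readings. Of 20 T cell identity genes listed, 11 were measured, and all 11 lay above the array median on both arrays of every group; their summed intensity ranged from 38593 to 46249. B cell genes (15 of 21 measured) summed to 2609 on replicate 1 and 5210 on replicate 2 of the WT Tregs, to between 2360 and 2820 on the other Treg arrays and to between 4661 and 5195 on the transduced arrays. On replicate 2 of the WT Tregs the B cell genes Cd79a and Ms4a1 read 399 and 213, against 94 and 38 on replicate 1. Without that array Gpr83 differed from WT by -1.28 in M354 Tregs and by -0.74 in M176 Tregs, farther from 0 than with it. CD8 and natural killer cell genes (12 of 17 measured) summed highest in the M354 groups, which were lowest for Gpr83. In Tregs they summed to between 3044 and 3542 with M354, 2133 and 2336 with WT and 1840 and 2162 with M176. In transduced cells they summed to between 6153 and 6590 with M354, 4860 and 5839 with WT and 5290 and 5821 with M176. In Tregs the higher sum with M354 came from Nkg7, which is also among the genes high in Tregs listed below. It read 2466 and 2031 in M354 Tregs against 1184 and 1039 in WT Tregs. Cd8a read 96.5 and 89.5 against 106 and 82.1, and Cd8b1 455 and 467 against 511 and 482. Gzma read 657 and 1018 in M354-transduced cells against 506 and 304 in WT-transduced cells. The natural killer genes Klrb1c, Klra8 and Ncr1 read between 14.8 and 36.7 on all 12 arrays. Other members of that list were brighter in transduced cells. Klrd1 read 31.6 and 31.5 in WT Tregs, 209 and 134 in WT-transduced cells and 410 and 298 in M354-transduced cells. In transduced cells Eomes read 167 and 149 with WT and 209 and 253 with M354. Cd8b1 read 768 and 921 with WT and 1035 and 1046 with M354 there. Cd8a did not rise with M354 there, at 348 and 428 against 449 and 371 with WT. Small nucleolar RNA genes, 36 in all, averaged 9.98 to 10.04 on the log2 scale in M176 Tregs and 8.66 to 8.87 in the other Tregs. In transduced cells they averaged 8.61 and 9.18 with WT and 8.86 and 9.46 with M176. With M354 they averaged 9.64 on replicate 1, the array with the lower Gpr83 reading of 184.2, and 8.75 on replicate 2. The part of these differences in the Gpr83 readings was not tested, beyond the values without the array above.

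The order WT over M176 over M354 with no overlap of arrays was held by 137 of the 8918 genes (1.54%) in Tregs and by 164 (1.84%) in transduced cells. Gpr83 was chosen for this pattern, and 10 other genes showed it in both systems. With Gpr83 these 11 genes were 8.03% of the Treg set and 6.71% of the transduced set. The 10 are Arhgef11, Atp6v0d2, Map3k8, Ms4a6c, Polg2, Sfmbt2, Slc2a3, Stim2, Tent5a and Zscan29, which were found after their values were seen. Of the 11 genes, 3 also had all Treg arrays above all transduced arrays: Gpr83, Ms4a6c and Sfmbt2.

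Within that set Gpr83 had the lowest M354 against M176 difference in transduced cells. Slc2a3, the glucose transporter GLUT3, came closest in size of the M354 effect. Its Treg arrays read 1141 and 1195 with WT, 732 and 730 with M176, and 481 and 503 with M354. Its transduced arrays read 2678 and 2636 with WT, 1401 and 1220 with M176, and 1093 and 1213 with M354. The M354 difference from WT was thus -1.25 in Tregs and -1.21 in transduced cells, near the -1.17 and -1.22 of Gpr83, but Slc2a3 was brighter in transduced cells, where Gpr83 was dimmer. Atp6v0d2, a subunit of the vacuolar proton pump, read 20.5 to 55.7 in Tregs and 157.3 to 432.6 in transduced cells. Its M354 differences were -1.33 and -1.15, with all 6 Treg readings below the array medians. Ms4a6c, which shares the system order with Gpr83, moved by -0.32 and -0.37 only.

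Likeness to Gpr83 was measured as Pearson's r of log2 intensity over the 12 arrays, among 1282 tested genes whose group means spanned at least 1 log2 unit. These values describe the arrays and carry no test, since the arrays share the split between Tregs and transduced cells, which dominates them. Of the 1282 genes, 47 had an r above 0.9 and 10 above 0.95. The 8 most alike were Ankrd55 (r = 0.97), Dusp1 (0.97), Il6st (0.97), Klf3 (0.96), Cxcr5 (0.96), Zfp608 (0.96), Rarg (0.96) and Lrrc61 (0.95). By Spearman's rank 7 of them stayed among the 8 most alike, and 5 did by the 6 group means alone.

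Several of these encode known parts of T cell biology. Dusp1, a phosphatase of MAP kinases and a textbook glucocorticoid-responsive gene, read 3414 and 2878 in WT Tregs and 610 and 649 in M354-transduced cells. Il6st, the shared signalling chain gp130 of the IL-6 receptor family, read 2725 and 2936 at the top and 1184 and 1304 at the bottom. Klf3 is a zinc finger repressor of the Kruppel family. Cxcr5, the chemokine receptor that leads cells to B cell follicles, read 245 and 210 in WT Tregs, 240 and 186 in M176 Tregs and 112 and 147 in M354 Tregs. Rarg, a retinoic acid receptor, had overlapping M176 and M354 Tregs, at 426 and 493 against 416 and 533, where Gpr83 did not overlap.

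The genes with the most opposite profile were Car2 (r = -0.99), Ndc80 (-0.97), Cpne7 (-0.97) and Dap (-0.96). Car2, a carbonic anhydrase, read 63.6 and 66.1 in WT Tregs and 76.9 and 84.3 in M176 Tregs. It read 87.0 and 95.1 in M354 Tregs and 243 and 203 in M354-transduced cells, the brightest group for this gene and the dimmest for Gpr83. Ndc80, part of the kinetochore that ties chromosomes to the spindle, read 86.0 and 119 in WT Tregs and 303 and 329 in M354-transduced cells.

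Within the 6 Treg arrays, where 438 genes spanned 1 log2 unit, other genes led. Slc2a3 (r = 0.99), Mid1 (0.97), Atp6v0d2 (0.97), Slc28a2b (0.93) and H2-Ob (0.92) were most alike. Atp6v0d2 passed the filter only through transduced arrays, and its likeness within Tregs rests on readings of 20.5 to 55.7, toward the 5th percentile of the arrays. H2-Ob, a chain of the modulator of peptide loading on MHC class II, read 817 and 900 in WT Tregs and 380 and 397 in M354 Tregs. Within the 6 transduced arrays only 33 genes spanned that much, and Atp6v0d2 (0.97), Neb (0.90), Tgm2 (0.90), Stc1 (0.88) and Slc2a3 (0.81) led. Slc2a3 and Atp6v0d2 are in both sets, yet over all 12 arrays their r was -0.39 and -0.72, because their system order is the reverse of Gpr83's.

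**Figure D3:**
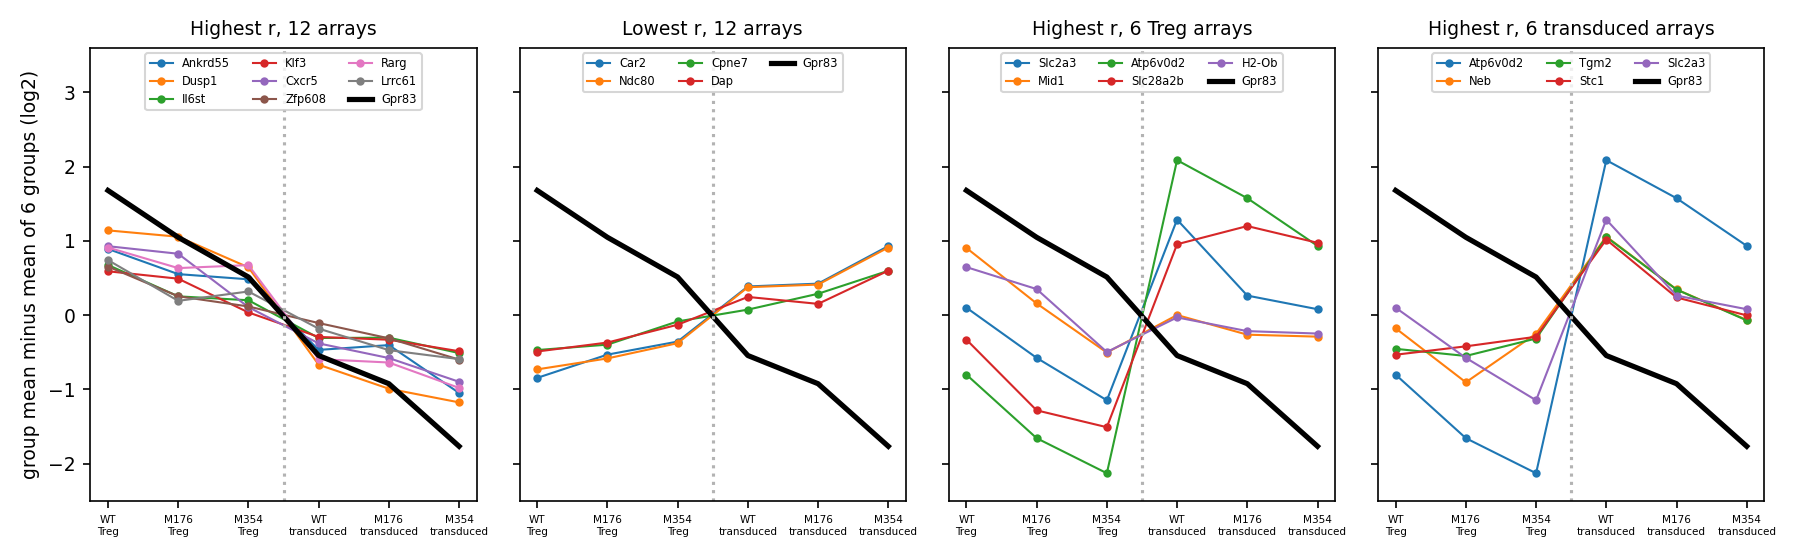
Mean log2 intensity of each group minus the mean of the 6 groups, for Gpr83 (black) and the genes with the highest and lowest r over 12 arrays and the highest r within the 6 Treg or 6 transduced arrays; the dotted line parts Tregs from transduced cells. Genes alike over 12 arrays step down with Gpr83 across the dotted line, whereas Slc2a3 and Atp6v0d2, alike within a system, step up there.

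Gpr83 lies on chromosome 9 between Mre11a and Izumo1r in the RefSeq order. Izumo1r, known as folate receptor 4, is another surface marker of Tregs. Its arrays read 4294 and 3768 in WT Tregs, 3100 and 3010 in M176 Tregs and 3970 and 3707 in M354 Tregs. In transduced cells it read 2266 and 2434 with WT, 1844 and 2297 with M176, and 1597 and 1396 with M354. The Treg arrays of WT and M354 overlapped for Izumo1r, where those of Gpr83 lay far apart.

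A gene counts as called where its p, adjusted by Benjamini-Hochberg over the 8918 tested genes, was under 0.05. Izumo1r was higher in WT Tregs than in WT-transduced cells, by 0.78 ± 0.14 (adjusted p = 0.00046), in a comparison that called 10.9% of genes higher and 19.4% lower. Quantile normalization there called 1302 genes higher and 1307 lower, against 968 and 1728, and moved the median of all genes from -0.08 to 0.03. It fell with M354 in transduced cells by -0.65 ± 0.14 (adjusted p = 0.0219), where 0.976% of genes were called lower and 0.359% higher. That call was lost without replicate 1 or 2 of the M354-transduced cells (adjusted p = 0.078 and 0.172), without replicate 2 of the WT-transduced cells (0.169) and with the 6 transduced arrays fitted alone (0.0563). The M354 difference of Izumo1r in Tregs was -0.07 ± 0.14 (adjusted p = 0.926), and the difference between systems was 0.59 ± 0.20 (adjusted p = 0.278). With M176 in Tregs it fell by -0.40 ± 0.14 (adjusted p = 0.0463), in a comparison that called 11.3% of genes lower and 13.4% higher (1010 and 1196; 1448 and 1124 after quantile normalization). That call was lost in 8 of 19 alternatives: without either WT Treg array (0.265 and 0.0613), either M176 Treg array (0.157 and 0.166) or either M354-transduced array (0.0511 each), with no filter (0.0589) and with the replicate number as a block (0.0625).

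The 12 nearest measured neighbours, 6 on each side, were Amotl1, Piwil4, Fut4, 1700012B09Rik, Ankrd49, Mre11a, Izumo1r, Panx1, Hephl1, Vstm5, Med17 and 4931406C07Rik. Of these 6 were bright enough to be tested, namely Ankrd49, Mre11a, Izumo1r, Panx1, Med17 and 4931406C07Rik. Izumo1r was the only one called in any allele comparison with WT or between WT Tregs and WT-transduced cells. The median log2 difference of the tested neighbours was -0.10 for M354 in Tregs and 0.10 for M354 in transduced cells.

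**Figure D4:**
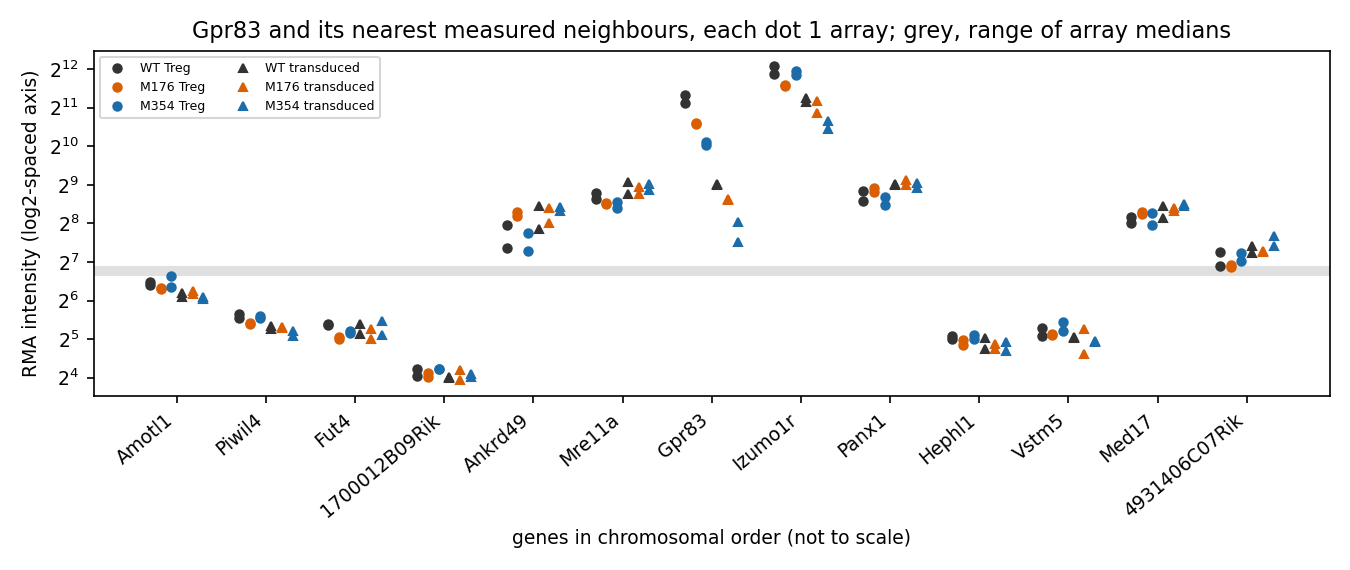
Intensity on each of the 12 arrays for Gpr83 and its 12 nearest measured neighbours in chromosomal order, on a log2-spaced axis, circles for Tregs and triangles for transduced cells; the grey band is the range of array medians. Levels of different probe sets are not comparable, but Gpr83 shows 6 separate groups of arrays, and 6 neighbours lie below the grey band.

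The genes of the proposed ligand were sparse. Of 13 listed genes for proSAAS, its processing enzymes and the receptor of a second proSAAS peptide, 9 were measured and 5 tested. Pcsk1n, which encodes proSAAS, read between 134 and 211 on all 12 arrays. Its M354 differences were -0.07 ± 0.15 in Tregs (adjusted p = 0.936) and -0.02 ± 0.15 in transduced cells (0.983). The convertases Pcsk1, Pcsk5 and Pcsk6 and the carboxypeptidase Cpe were not tested, being too dim, while Furin and Pcsk7 were tested and not called against WT.

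Gpr171, the reported receptor of the proSAAS peptide BigLEN, ran the other way from Gpr83. It read 246 and 234 in WT Tregs and 784 and 666 in WT-transduced cells, a log2 difference of -1.59 ± 0.14 (adjusted p = 1.75e-07). In M176 Tregs it read 397 and 339 and rose by 0.61 ± 0.14 (adjusted p = 0.00413), a call lost without replicate 1 of the M176 Tregs (0.0785). Scg5, a helper protein of the convertases, was higher in WT Tregs than in WT-transduced cells by 0.48 ± 0.14 (adjusted p = 0.0188). That call was lost with quantile (0.0623) or cyclic loess normalization (0.0898), without replicate 2 of the WT Tregs (0.14) and without replicate 1 of the WT-transduced cells (0.137). Scg5 passed the filter only through Treg arrays, which favours a call in that direction. In M354 Tregs Gpr171 read 362 and 338, a rise of 0.54 ± 0.14 that was not called (adjusted p = 0.0534). No proSAAS gene was called by limma with M354 in either system (1 of the 5 had an unadjusted p under 0.05 in each). With M354 0.886% of all genes were called higher and 0.919% lower in Tregs, and 0.359% and 0.976% in transduced cells. None was called with M176 in transduced cells (0 of 5 at an unadjusted p under 0.05), where 0.505% of genes were called lower and 0.0112% higher. Counts of 0 are near these shares.

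Downstream of the receptor, 18 of 24 listed genes from Gq to phospholipase C were tested. With M354 in Tregs limma called none of them in either direction, in a comparison that called 0.886% of genes higher and 0.919% lower (79 and 82; 143 and 82 after cyclic loess); 3 had an unadjusted p under 0.05, and their median difference was -0.09, beside -0.04 over all genes. With M176 in Tregs 1 rose and 4 fell, with a median of -0.25, where 13.4% of all genes were called higher and 11.3% lower. Gnaq, the Gq alpha subunit, fell there by -0.94 ± 0.18 (adjusted p = 0.00113), and Rasgrp2, a diacylglycerol-activated exchange factor for Rap, rose by 0.89 ± 0.15 (adjusted p = 0.000481). With M354 in transduced cells, where 0.976% of all genes were called lower, 1 fell, Gnaq, by -0.79 ± 0.18 (adjusted p = 0.0329).

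That Gnaq call was lost in 6 settings, among them without replicate 1 of the M354-transduced cells (adjusted p = 0.435) and without replicate 1 of the WT-transduced cells (0.196). It was also lost without either M354 Treg array (0.0527 each), with the replicate block (0.0529) and with the transduced arrays alone (0.0661). In M354 Tregs Gnaq read 471 and 492, above the 288 and 325 of WT Tregs, a difference of 0.65 that was not called (adjusted p = 0.0745). With M176 in transduced cells limma called none of the 18, and 2 had an unadjusted p under 0.05. Of all genes 0.505% were called lower and 0.0112% higher there. Between WT Tregs and WT-transduced cells 4 were higher and 4 lower, where 10.9% of all genes were called higher and 19.4% lower. Plcb4, a phospholipase C beta, fell by -0.66 there (adjusted p = 0.00523), a call lost without replicate 1 of either group (0.103 and 0.0696). Prkce, a protein kinase C, fell by -0.62 (adjusted p = 0.00716), lost without the same arrays (0.0629 and 0.0898).

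Of 12 tested genes of Gi, Gs and cyclic AMP signalling (20 listed), limma called none with M354 in Tregs (1 at an unadjusted p under 0.05) or with M354 or M176 in transduced cells (2 each). With M176 in Tregs 2 fell: Akap8, an anchor of protein kinase A, by -0.56, and the adenylyl cyclase Adcy7 by -0.47. That comparison called 13.4% of all genes higher and 11.3% lower. With M354 0.886% were called higher and 0.919% lower in Tregs. In transduced cells these shares were 0.359% and 0.976% with M354 and 0.0112% and 0.505% with M176. The Adcy7 call was lost without either M176 Treg array or replicate 1 of the WT Tregs (adjusted p = 0.0924, 0.126 and 0.181). Crem and Prkar2a, a cyclic AMP responsive factor and a protein kinase A subunit, were among 3 lower in WT Tregs than in WT-transduced cells, by -1.47 and -1.25. Of all genes 10.9% were called higher and 19.4% lower there. Of 9 tested beta and gamma subunits (14 listed), 3 rose with M176 in Tregs, led by Gng5 at 1.34 and Gng10 at 0.52. The Gng10 call was lost without replicate 1 of the M176 Tregs (adjusted p = 0.128). Between the WT groups 1 of the 9 was lower in Tregs, Gng2, by -0.60, and limma called none with M354 in Tregs (4 at an unadjusted p under 0.05) or with either allele in transduced cells (0 each).

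Genes that silence such receptors (11 of 21 listed were tested) had 2 members called in each allele comparison with WT. In transduced cells the same 2 fell with each allele: Rgs11, which speeds G alpha hydrolysis, and Arrb1, the beta-arrestin 1 gene. Over all genes 0.976% were called lower there with M354 and 0.505% with M176. Rgs11 read 279 and 310 with WT, 159 and 121 with M176 and 120 and 129 with M354, and its differences were -1.08 ± 0.16 with M176 (adjusted p = 0.00186) and -1.24 ± 0.16 with M354 (0.000447). Arrb1 read 1266 and 1277 with WT, 785 and 713 with M176 and 653 and 738 with M354, differences of -0.77 ± 0.13 (adjusted p = 0.00493) and -0.87 ± 0.13 (0.0011). With replicate 2 of the M176-transduced cells left out, the M176 calls of Rgs11 and Arrb1 were lost (adjusted p = 0.0815 and 0.111). Both alleles are set against the same WT arrays.

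In Tregs 1 gene of that list rose and 1 fell with each allele, where M354 called 0.886% of all genes higher and 0.919% lower, and M176 13.4% and 11.3%. With M354, Txnip, an alpha-arrestin that binds thioredoxin, fell by -0.85 ± 0.14 (adjusted p = 0.003) and Rgs9 rose by 0.56 ± 0.14 (0.0448). The Txnip call was lost without replicate 1 of the M354 Tregs (adjusted p = 0.0758). The Rgs9 call was lost in 10 settings: without any 1 of the 6 Treg arrays (adjusted p from 0.0631 to 0.319), without either M354-transduced array (0.0603 each), with no filter (0.0512) and with the replicate block (0.067). With M176, Rgs9 fell by -0.66 ± 0.14 (adjusted p = 0.00218) and Arrdc3, another alpha-arrestin, rose by 0.54 ± 0.14 (0.00759), lost without replicate 1 of the M176 Tregs (0.0757). Between WT Tregs and WT-transduced cells Rgs9 was higher by 1.11, and Rgs11 and Arrb1 were lower by log2 differences of -1.85 and -0.58. Rgs11 passed the filter only through transduced arrays, and its Treg readings, 70.9 to 93.3, lay below the median of their array. Rgs9 passed it only through Treg arrays, and read 97.7 and 96.8 in WT-transduced cells. For each gene this favours a call in the direction seen.

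Among 37 tested rhodopsin-like receptors of T cells other than Gpr83 (64 listed, 48 measured), 3 rose and 4 fell with M354 in Tregs. Their median difference was 0.03, beside -0.04 over all genes, of which 0.886% were called higher and 0.919% lower. Gpr146, an orphan receptor, fell by -1.11 ± 0.14 (adjusted p = 0.000189), close to the size of Gpr83's -1.17. The cannabinoid receptor Cnr2 fell by -0.85, Cxcr5 by -0.82 and Ccr9, a gut homing receptor, by -0.64. The chemokine receptor Cxcr6 rose by 2.28 ± 0.19 (adjusted p = 6.46e-06) and the leukotriene receptor Cysltr1 by 0.95. The Cxcr5 call was lost without replicate 1 of the M354 or of the WT Tregs (adjusted p = 0.157 and 0.104), and the Ccr9 call without any 1 of those 4 arrays (0.0547 to 0.281).

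With M176 in Tregs 5 of the 37 rose and 9 fell, where 13.4% of all genes were called higher and 11.3% lower; the count that rose is near that background. Ccr2 fell by -2.13 ± 0.20 (adjusted p = 2.57e-06), Ccr6 by -1.59, Ccr4 by -1.45 and Ccr8 by -0.83, all chemokine receptors, and the lysophosphatidic acid receptor Lpar6 rose by 0.94. Ccr3 was also called, at -0.84, but passed the filter only through transduced arrays. Its Treg readings, 71.2 and 106 with WT and 47.7 and 49.1 with M176, all lay below the median of their array, and the call was lost without replicate 2 of the WT Tregs (adjusted p = 0.0768). In transduced cells 1 of the 37 fell with each allele, where 0.976% of all genes were called lower with M354 and 0.505% with M176. With M354 it was Ccr4, by -0.58 ± 0.13 (adjusted p = 0.0347), a call lost in 8 settings with an adjusted p of 0.0564 to 0.247, among them without any 1 of the 4 WT- and M354-transduced arrays. With M176 it was Cysltr1, by -0.69 ± 0.14 (adjusted p = 0.029), lost in 6 settings at 0.0511 to 0.287, among them without any 1 of the 4 WT- and M176-transduced arrays. The difference of Gpr83 with M354 there was -1.22.

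Between WT Tregs and WT-transduced cells 10 of the 37 receptors were higher and 15 lower, where 10.9% of all genes were called higher and 19.4% lower. Ccr6 was higher by 2.72 and Ccr9 by 1.75, on the side of Gpr83 at 2.22. Ccr9 passed the filter only through Treg arrays, which favours a call in that direction. It read 61.8 and 54.8 in WT-transduced cells, and Ccr6 averaged 71.5 there, both below the array medians. Cysltr1 was lower by a log2 difference of -3.53, Ccr2 by -2.73, Cxcr6 by -2.54 and Cxcr3 by -1.82.

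Glucocorticoid-responsive genes were listed because Gpr83 was once described as glucocorticoid-induced, and 19 of 28 were tested. With M354 in Tregs 1 rose and 3 fell, where 0.886% of all genes were called higher and 0.919% lower. Tsc22d3, the glucocorticoid-induced leucine zipper, read 372 and 358 in WT Tregs and 176.5 and 168.5 in M354 Tregs, a fall of -1.08 ± 0.13 (adjusted p = 8.54e-05). In M176 Tregs it read 488 and 535, above WT, so its order was not that of Gpr83. Il7r, the IL-7 receptor chain, fell by -0.79 with M354 and by -0.65 with M176. With M176 in Tregs 2 rose and 4 fell, where 13.4% of all genes were called higher and 11.3% lower. The count that rose is near that background. Fkbp4, a chaperone partner of steroid receptors, rose by 0.69.

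In transduced cells 3 fell with each allele, and none rose. Over all genes 0.976% were called lower and 0.359% higher with M354, and 0.505% and 0.0112% with M176. The metallothionein Mt2 fell by -1.41 with M354 and -1.49 with M176, and Errfi1, a feedback inhibitor of growth factor receptors, by -0.74 and -0.82. The M354 call of Errfi1 was lost without replicate 1 of the M354- or the WT-transduced cells (adjusted p = 0.175 and 0.0841), and that of Mt2 without replicate 2 of either (0.0907 and 0.0558). With M176 both calls were lost without either M176-transduced array or replicate 1 of the WT-transduced cells (0.057 to 0.173). Between the WT groups 3 were higher and 8 lower in Tregs, with Mt2 at -4.05 and Mt1 at -2.16. That comparison called 10.9% of all genes higher and 19.4% lower. Nr3c1, the glucocorticoid receptor gene, read 518 to 577 in Tregs and 534 to 706 in transduced cells, and its M354 difference in Tregs was -0.04 (adjusted p = 0.957).

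Of 36 tested genes known to be high in Tregs (48 listed, Gpr83 left out), 5 rose and none fell with M354 (3 were lower at an unadjusted p under 0.05), with a median of 0.00, where 0.886% of all genes were called higher and 0.919% lower. They included Penk, a precursor of opioid peptides, which rose by 1.48 ± 0.19 (adjusted p = 0.000248) and Nkg7, a granule membrane protein, by 1.01. With M176 in Tregs, where 13.4% of all genes were called higher and 11.3% lower, 1 of the 36 rose and 18 fell, among them the protease granzyme B gene Gzmb by -2.80 and the lectin receptor Klrg1 by -2.26, and the median was -0.38. In transduced cells 8 fell with M354 and 2 with M176, none rose, and the medians were -0.29 and -0.17. Over all genes 0.976% were called lower with M354 and 0.505% with M176. Ndrg1, a stress-responsive gene, fell by -2.06 with M354 and by -2.02 with M176, and Tnfrsf9, the receptor 4-1BB, by -1.14 and -0.98. The M176 call of Tnfrsf9 was lost without replicate 1 of the M176-transduced cells (adjusted p = 0.0601). Between the WT groups 11 were higher and 9 lower in Tregs, with Itgb8, an integrin chain, at 3.85 and Gzmb at -3.96. That comparison called 10.9% of all genes higher and 19.4% lower. Itgb8 averaged 54.9 in WT-transduced cells, below the array medians.

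Resting and effector genes are given beside the same shares of all genes called in Tregs, 0.886% higher and 0.919% lower with M354, and 13.4% and 11.3% with M176. In transduced cells these shares were 0.359% and 0.976% with M354 and 0.0112% and 0.505% with M176. Between the WT groups they were 10.9% and 19.4%. Differences between the alleles or the lists in these counts were not tested. The effector list shares members with the genes high in Tregs, such as Gzmb, Klrg1 and Tigit, and with the receptors, such as Ccr8. Their counts are thus not separate results. Of 12 tested resting or naive T cell genes, none rose and 4 fell with M354 in Tregs (median -0.47), and 2 rose and 3 fell with M176 (median 0.01). In transduced cells limma called none with either allele (2 each at an unadjusted p under 0.05), and 1 was higher and 4 lower in WT Tregs than in WT-transduced cells. Of 23 tested effector Treg genes, 5 rose and none fell with M354 in Tregs (median 0.28), and 1 rose and 16 fell with M176 (median -0.66). In transduced cells 5 fell with M354 and 1 with M176. Between the WT groups 3 were higher and 12 lower in Tregs. Gpr83 lay below WT with both alleles in Tregs. Of 7 tested neuropeptide ligands and receptors other than the proSAAS genes, 2 rose with M354 in Tregs, 2 rose and 2 fell with M176, limma called none in transduced cells (2 with M354 and 0 with M176 at an unadjusted p under 0.05), and 4 were higher and 1 lower in WT Tregs than in WT-transduced cells.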

How the data were processed

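The 12 arrays fall into 6 groups of 2, taken from the sample titles. The authors used Affymetrix Power Tools and RMA, per the submitters' processing notes, and the deposited values are linear intensities, 1 per probe set and array. Genome build and tool versions were not given in the sources used here. Of 20716 probe sets, 17703 had 1 gene symbol, 1246 several and 1767 none. The brightest singly named probe set stood for a gene (734 genes had several), giving 16426 genes. Genes brighter than percentile 50 of the same array on 2 or more arrays were tested, 8918 in all.

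The log2 intensities entered a limma model (version 3.58.1, R 4.3.3) with 1 mean per group, 12 arrays and no block (6 residual degrees of freedom, prior 10.9). Adjusted p-values are Benjamini-Hochberg, over all tested genes, and a gene was called under 0.05. Means and SD are of linear intensities, and differences are of log2 means. The script was tested on simulated data. Gpr83, the gene lists and the rules were chosen with earlier results of these data known. From each list the text names at most 4 called genes of largest difference per comparison (6 for the receptors), plus all proSAAS genes and neighbours measured. Likeness was ranked among genes with a RefSeq entry and no predicted or clone name. Many genes of some chromosomes are not analysed here, which shortens the lists. Promoter letters are RefSeq's, and no protein sequence was used. Alternatives were quantile and cyclic loess normalization, the filter, the mean over probe sets, the replicate number as a block, 1 system alone and each array left out. The number of arrays limits the precision. Correlation of replicate deviations between groups was over 0.1 in 3 of 15 pairs of groups. The lowest values were -0.551, -0.43 and -0.33. Their sign depends on the replicate numbers, so large values of either sign count. The numbers were not used to pair samples, and these values cannot exclude a batch shared between groups.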

Additional observations from a re-analysis of the deposited data

Results flagged for a closer look

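The effect of an allele in Tregs minus its effect in transduced cells passed the test of that difference for the genes below. Gpr83 itself was given no test, and Rgs11 is given without its p for the reason below. The genes looked at were named above for a called difference from WT with that allele in these arrays. That choice favours a difference between systems. Over all 8918 tested genes, 74 differences between systems were called positive and 22 negative with M354. With M176 these counts were 359 and 131. Values below are log2 differences with their SE and limma's adjusted p. A p that misses the threshold in the rest of the named genes does not show that their effects were alike. No cause was tested.

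For M354 the difference between systems was 1.80 ± 0.18 for Ndrg1 (adjusted p = 5.74e-05), 1.78 ± 0.27 for Cxcr6 (adjusted p = 0.00217), 1.44 ± 0.25 for Gnaq (adjusted p = 0.00615) and 1.38 ± 0.20 for Cysltr1 (adjusted p = 0.00141). It was 0.92 ± 0.21 for Tnfrsf9 (adjusted p = 0.0416). For Rgs11 it was 1.29 ± 0.23, given without its p. Rgs11 passed the filter only through transduced arrays and was named for its called falls there. That choice favours a difference between systems with either allele. Rgs11 read 70.9 to 93.3 in Tregs, below the median of each array. The difference between systems lay below 0 for 2 genes, at -1.08 ± 0.18 for Tsc22d3 (adjusted p = 0.00366) and -1.02 ± 0.20 for Cnr2 (adjusted p = 0.0123). Gnaq differed by 0.65 from WT in M354 Tregs and by -0.79 in M354-transduced cells.

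For M176 it lay below 0 at -2.52 ± 0.29 for Gzmb (adjusted p = 0.000123), -2.36 ± 0.26 for Klrg1 (adjusted p = 8.17e-05), -1.90 ± 0.28 for Ccr2 (adjusted p = 0.00103), -1.77 ± 0.21 for Ccr6 (adjusted p = 0.000143) and -1.03 ± 0.19 for Ccr4 (adjusted p = 0.00411). It lay above 0 at 1.84 ± 0.18 for Ndrg1 (adjusted p = 2.56e-05), 1.31 ± 0.27 for Gng5 (adjusted p = 0.00852) and 0.80 ± 0.21 for Tnfrsf9 (adjusted p = 0.0335). For Rgs11 it was 1.0 ± 0.23, given without its p as above. The smallest were 0.65 ± 0.18 for Fkbp4 (adjusted p = 0.0456) and 0.65 ± 0.18 for Arrb1 (adjusted p = 0.0446). Ccr6 averaged 71.5 in WT-transduced cells, below the array medians, and its M176 difference from WT there was 0.18.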

How the results depend on the processing

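Every Gpr83 difference kept its sign in all settings run, except the M354 difference between systems. Of 168 Gpr83 values under an alternative, 161 moved by less than 0.15, the SD of Gpr83 that limma pools over the groups. Many of these were bound to stay the same. With 1 probe set and both replicate numbers in each group, the filter, the mean over probe sets and the replicate block cannot move a Gpr83 difference. Nor can fitting 1 system alone or leaving out an array of a group not compared. Only the normalizations and the left-out arrays of the compared groups put these values to a test. With each array left out in turn, the M354 difference from WT in transduced cells ranged from -1.48 to -0.97, that between M354 and M176 there from -1.10 to -0.59, and the M354 difference between systems from -0.20 to 0.31; the ends are those without an M354-transduced array. Quantile normalization gave 2.39 for WT Tregs against WT-transduced cells.

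Counts of called genes moved more. For M354 in Tregs (161 called) quantile normalization called 277, and leaving out arrays gave 73 (without replicate 1 of the M354 Tregs) to 212. For M176 in Tregs (2206) leaving out arrays gave 917 (without replicate 1 of the M176 Tregs) to 2385. A filter at percentile 75 called 76 genes for M354 in transduced cells (119), 26 for M176 in transduced cells (46) and 1339 between the WT groups (2696). Leaving out arrays gave 42 (without replicate 1 of the M354-transduced cells) to 140, 23 (without replicate 2 of the M176-transduced cells) to 53 and 1506 (without replicate 1 of the WT Tregs) to 2768. Fewer genes or samples enter those fits. Of 1294 values of named genes, 77 kept their direction and lost the call, and none was reversed. All 24 likeness values by Spearman's rank or by group means kept the sign of r.

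With the replicate number as a block, the called genes were 134, 2012, 99, 45 and 2490 in the order above. Gpr83's differences, -1.17 for M354 in Tregs, could not change there, since each group holds 1 array of each number. Correlations of replicate deviations between groups ran from -0.551 to 0.25, and the labels do not say whether the numbers pair samples. At 2 arrays per group, differences near the SE of 0.15 are within the spread between arrays.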
